A study of Mus musculus with 2 samples.

Results

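The 9 genes described here are 5 keratins of simple epithelium (Krt7, Krt8, Krt18, Krt19 and Krt20) and 4 keratins of stratified squamous epithelium (Krt4, Krt6a, Krt13 and Krt14). They were chosen by name, and all 9 are among the 18319 genes that the table of cluster genes names. The cells came from 2 tumors that formed in female mice of the NuJ strain, nude mice that lack a thymus, after injection of mouse dysplastic stem cells, which the labels call DP-DSC. One library is from a cystic adenocarcinoma taken 10 weeks after the injection and the other from a tubular adenocarcinoma taken 13 weeks after it. Single cells were captured in droplets with barcoded beads on the inDrop platform. Both libraries share the injected cell type, the sex and the strain of the host, and no library without injected cells is part of the comparison. The genotype of the injected cells is not given in the sources used here, and since they and the host are both mouse cells, the table does not separate tumor cells from host cells. With 1 library per tumor type and columns that carry cluster numbers alone, the tumor types cannot be compared and no value has an error across animals. The sources used here give no depth, cell number or doublet treatment.

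Keratins are the intermediate filament proteins of epithelial cells. A filament forms only from a type I (acidic) keratin joined to a type II (basic) one, so the genes are usually expressed in pairs. Krt8 with Krt18 is the pair of simple, single-layered epithelia, and Krt7, Krt19 and Krt20 add to it in glands and ducts. In the stomach Krt20 is known as a keratin of the surface mucous cells. Krt14 belongs to the basal layer of squamous epithelium, where it pairs with Krt5, Krt4 pairs with Krt13 in the layers above, and Krt6a is the keratin of wounded and proliferating epidermis. The mouse forestomach is lined by squamous epithelium, while the glandular stomach is simple.

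The type II genes Krt7, Krt8, Krt4 and Krt6a and the type I gene Krt18 lie on chromosome 15 of GRCm38 (mm10), and the type I genes Krt19, Krt20, Krt13 and Krt14 on chromosome 11 (GENCODE M21). Krt8 (101996698 to 102004482) and Krt18 (102028180 to 102032027) are neighbors that point away from each other, with 23697 bases between them. Krt20 lies at 99428403 to 99438150. The promoters of these 3 genes are shown because Krt8 and Krt18 are the partner genes that the table lists together most often and Krt20 has the largest folds among the simple keratins. The sequences are RefSeq's on GRCm38.p6, each on the gene's own strand and ending before the gene's annotated start, and capitals mark CACCC or its reverse complement, a core that Klf and Sp factors bind, and the TATA box letters TATAAA.
Krt8, chr15:102004483-102004592, minus strand: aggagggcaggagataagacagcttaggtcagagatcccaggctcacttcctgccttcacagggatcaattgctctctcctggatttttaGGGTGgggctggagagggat
Krt18, chr15:102027966-102028179, plus strand: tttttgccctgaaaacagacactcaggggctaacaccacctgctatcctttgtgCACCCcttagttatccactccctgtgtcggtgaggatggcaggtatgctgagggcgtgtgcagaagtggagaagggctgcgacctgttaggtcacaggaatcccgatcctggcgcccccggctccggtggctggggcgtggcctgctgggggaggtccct
Krt20, chr11:99438154-99438403, minus strand: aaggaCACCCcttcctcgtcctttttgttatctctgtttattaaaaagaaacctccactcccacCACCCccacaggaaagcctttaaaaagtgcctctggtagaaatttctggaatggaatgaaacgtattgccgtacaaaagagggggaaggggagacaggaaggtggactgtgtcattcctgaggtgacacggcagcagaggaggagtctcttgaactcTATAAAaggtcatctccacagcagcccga

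RefSeq's promoter windows of 300 bases (250 before the start and 50 after it) were found for 6 of the 9 members, in 7 windows. Of these, 3 lie wholly inside the gene as GENCODE annotates it, those of Krt7 and Krt14 and 1 of the 2 of Krt13, so they stand before a RefSeq start and not before the GENCODE gene. CACCC on either strand was in 7 of the 7 windows, against 57.5% of all 32851 mouse windows of that length. TATAAA on either strand was in the windows of Krt20 and Krt8, against 13.6% of all windows. In Krt20 it begins 29 bases before the RefSeq start. In Krt8 it overlaps its own reverse complement, and the last match begins 1 base before the RefSeq start. The Krt8 letters lie inside the gene as GENCODE annotates it and so beyond the stretch printed above. The GC box GGGCGG was found in the window of Krt7 and in no other member's, against 35.7% of all windows. The AP-1 letters TGANTCA, where N is any base, were found in both windows of Krt13 and in no other member's, against 7.81% of all windows. A match describes letters and not a bound site.

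The 9 keratins were listed in 6 of the 11 clusters, namely 2, 3, 5, 6, 7 and 9, and no member was listed in clusters 1, 4, 8, 10 and 11. Listed means that the table gives the gene a fold in that cluster, and every such fold exceeds 1.5. Raised means that the fold is at least 2 and the deposited p-value at most 0.05. The fold is linear and its reference is not written in the table; if it is the remaining cells, each cluster is part of the reference of the others. A fold is relative to each gene's own reference, so it orders clusters within a gene and says nothing of which keratin is more abundant.

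Simple keratins were listed in 22 of 55 pairs of a gene and a cluster and raised in 13, and squamous keratins were listed in 8 of 44 pairs and raised in 4. Of all pairs of a named gene and a cluster, 23.3% were listed and 10.0% raised. The simple keratins were above these shares, with 40.0% listed and 23.6% raised, and the squamous keratins, with 18.2% and 9.09%, were near or below them. For the raised shares this order reverses at a fold of at least 3, as given in the section on processing. In cluster 3, 5 of 5 simple keratins were listed and 4 raised, and 2 of 4 squamous keratins were listed and 0 raised, where 29.9% of all named genes were listed and 4.0% raised. In cluster 6 the simple keratins had 5 listed and 3 raised and the squamous ones 3 listed and 2 raised, against 36.4% and 20.3% of all genes. For cluster 9 the numbers were 5 and 4 simple and 1 and 1 squamous, against 38.9% and 26.6%. Cluster 5 had 3 simple keratins listed and 1 raised, and 1 squamous keratin listed and raised, against 20.6% and 4.32%. Cluster 7 had 3 simple keratins listed and 1 raised and no squamous one, against 12.1% and 3.42%. Cluster 2 had 1 of each kind listed and 0 raised, against 9.07% and 2.89%. Among the clusters with no keratin of the 9, the share of all genes listed was 6.34%, 31.5%, 26.4%, 18.9% and 25.7% for clusters 1, 4, 8, 10 and 11, and the share raised was 1.82%, 18.6%, 6.36%, 4.90% and 17.0% in the same order.

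**Figure D1:**
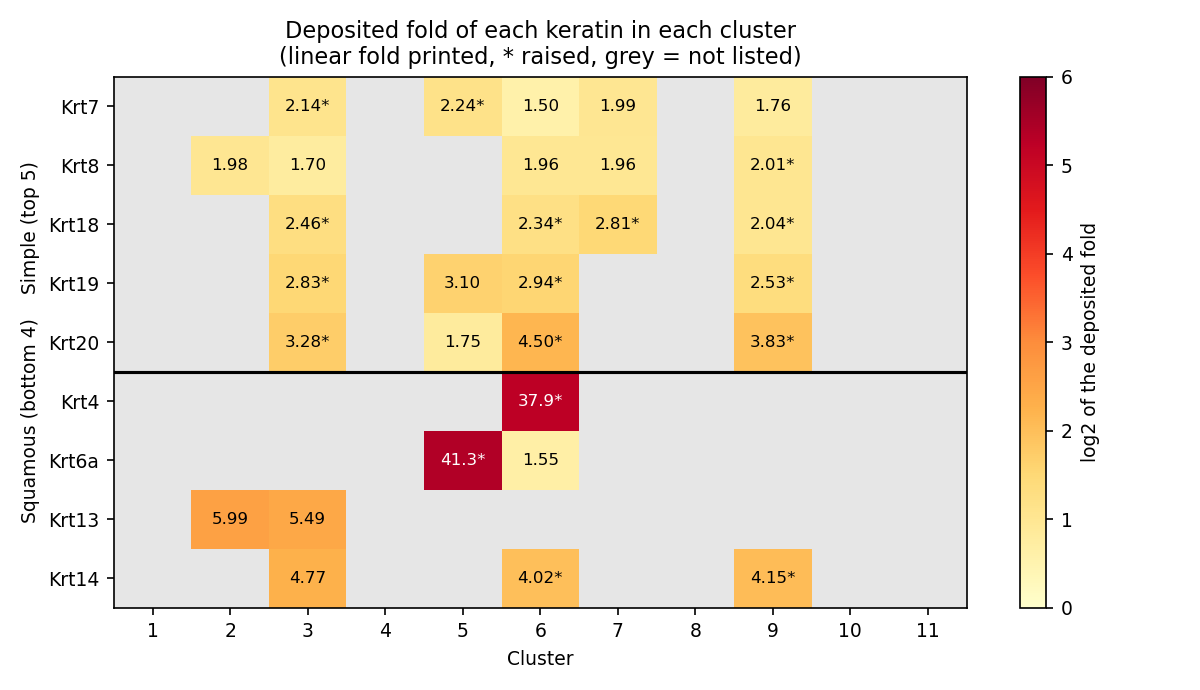
Deposited linear fold of each keratin (rows, simple above the line and squamous below it) in each of the 11 clusters (columns), colored by its log2, with an asterisk where the gene was raised and grey where it was not listed. The simple keratins fill clusters 3, 6 and 9 with folds from 1.501 to 4.50. Of the squamous keratins, Krt14 appears in the same 3 clusters, Krt13 in clusters 2 and 3, Krt6a in clusters 5 and 6 and Krt4 in cluster 6. Their largest folds are at Krt4 in cluster 6 (37.9) and Krt6a in cluster 5 (41.3).

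The pair of simple epithelium, Krt8 and Krt18, was listed together in clusters 3, 6, 7 and 9. Krt18 was raised in all 4 of them, with folds of 2.46, 2.34, 2.81 and 2.04 in that order per the authors' deposited table. Its type II partner Krt8 stood at 1.70, 1.96, 1.96 and 2.01 in the same clusters of the authors' deposited table and was raised in cluster 9 alone. Krt8 was also listed in cluster 2, at 1.98 per the authors' deposited table, where Krt18 was not listed. The folds of Krt8 lay within a factor of 1.18 of each other, the narrowest range of the 5 simple keratins. Krt8 had 3 folds between 1.9 and 2, and Krt7 had 1, so the count of raised clusters for these genes turns on where the threshold stands: 4 pairs lay in that interval and 2 between 2 and 2.1.

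Krt20 had the largest simple keratin fold in each of clusters 3, 6 and 9, at 3.28, 4.50 and 3.83 per the authors' deposited table, and was raised in all of them, though in cluster 3 the call ends when the deposited p is adjusted over the genes listed there (Benjamini-Hochberg). It was also listed in cluster 5 at 1.75 per the authors' deposited table, where it was not raised. Krt19, a keratin of ducts and of gland progenitors, followed it in clusters 3, 6 and 9 with 2.83, 2.94 and 2.53 per the authors' deposited table, raised each time. In cluster 5 Krt19 had a fold of 3.10 per the authors' deposited table, the highest of its values, at place 3233 of 3765 by p, and was not raised. Krt20 ranged over a factor of 2.57 between its clusters and Krt19 over 1.23.

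Krt7, the type II keratin of glandular and ductal cells, was raised in cluster 3 at 2.14 and in cluster 5 at 2.24 per the authors' deposited table. It stood at 1.99 in cluster 7, 1.76 in cluster 9 and 1.501 in cluster 6 per the authors' deposited table, none of them raised. Krt7 was therefore the 1 simple keratin raised in cluster 5. In cluster 6 its fold is close to the lowest value that the table holds.

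In clusters 3, 6 and 9 the order of the folds was the same for the type I genes, with Krt20 above Krt19 and Krt19 above Krt18. All 3 had larger folds there than the type II genes Krt7 and Krt8. The gap between the lowest type I and the highest type II fold was between 2.46 and 2.14 in cluster 3, 2.34 and 1.96 in cluster 6, and 2.04 and 2.01 in cluster 9 of the authors' deposited table. Krt7 was above Krt8 in cluster 3, and Krt8 above Krt7 in clusters 6 and 9. Whether these differences exceed the error of the folds was not tested, since the table gives no error for them.

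Krt18, Krt19 and Krt20 were raised in clusters 3, 6 and 9 alike, which held for 96 of the 18319 genes (0.524%). All 5 simple keratins, and Krt14 of the squamous ones, were listed in these 3 clusters, which held for 1828 genes (9.98%). Krt19 and Krt20 had the same set of clusters, 3, 5, 6 and 9, shared with 275 other genes each including one another. The set of Krt18, clusters 3, 6, 7 and 9, was that of 65 other genes, the set of Krt7 that of 29 and the set of Krt8 that of 2.

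In clusters 3, 6 and 9 the simple keratins came early by p with modest folds. In cluster 6 Krt18 was at place 1, Krt8 at 4, Krt7 at 22, Krt19 at 57 and Krt20 at 103 of 6664 genes, and in cluster 9 Krt20 was at place 1, Krt8 at 43, Krt18 at 51, Krt7 at 98 and Krt19 at 108 of 7131 genes. Cluster 3 had Krt8, Krt7 and Krt18 at places 10, 11 and 12, Krt19 at 127 and Krt20 at 439 of 5474 genes. In cluster 7 the 3 listed genes were later, Krt8 at 198, Krt7 at 238 and Krt18 at 248 of 2217. Cluster 2 had Krt8 at place 26 of 1661. In cluster 5 Krt7 was at place 107, and Krt20 and Krt19 were late, at 2743 and 3233 of 3765 genes. By size of fold the same genes mostly stood lower, with a median of 67.8% of the cluster's listed genes having a larger fold. In cluster 6, 57.1% of the listed genes had a larger fold than Krt18 and 99.9% a larger one than Krt7. Krt20 stood higher, with 20.3% of the listed genes above it in cluster 6 and 23.8% in cluster 9. The median fold over the 22 listed pairs was 2.19, against 2.91 over all 46855 listed pairs of the authors' deposited table. A p made over cells is small for genes seen in many cells, so the place by p is a description within each cluster's list.

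**Figure D2:**
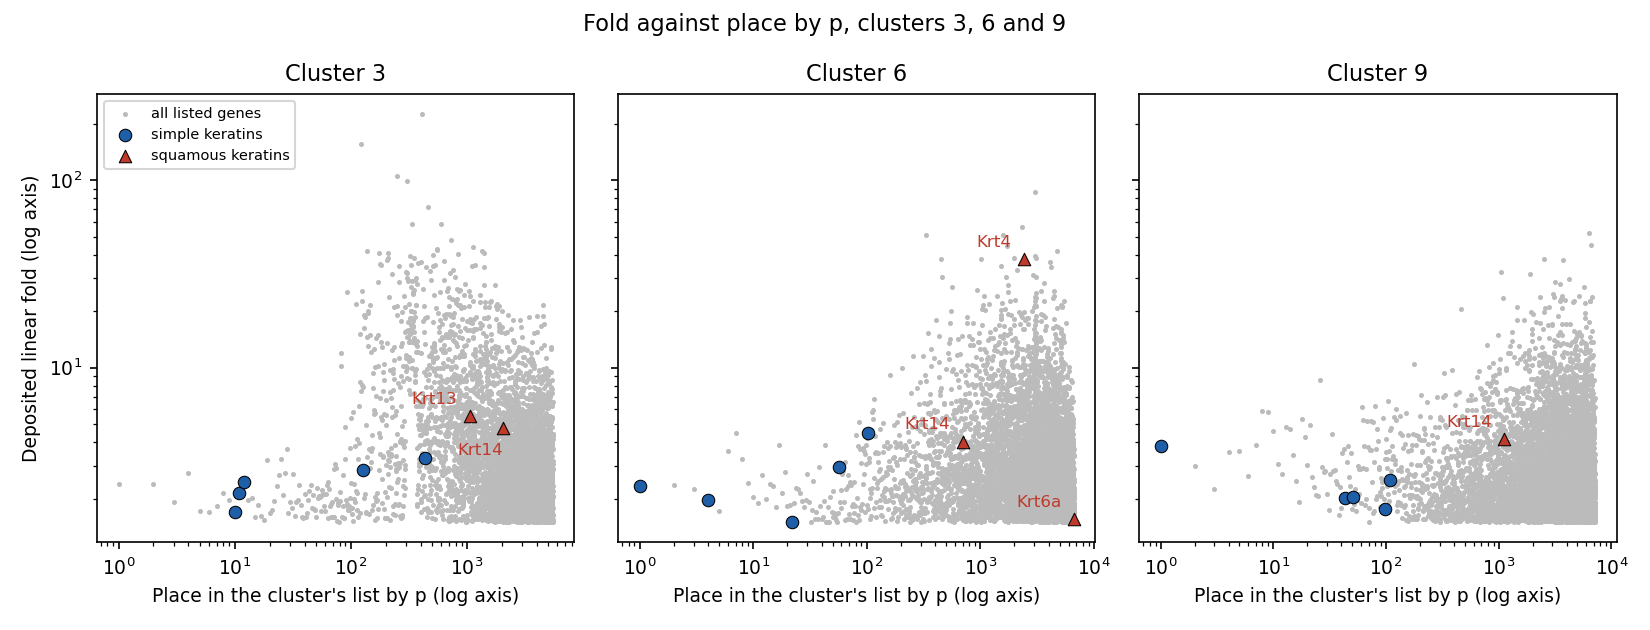
Deposited linear fold (vertical log axis) against the place in the cluster's list by p (horizontal log axis) in clusters 3, 6 and 9, with all listed genes as grey points, simple keratins as blue circles and squamous keratins as red triangles. The simple keratins sit at the left, at places 1 to 439, with folds of at most 4.50, and the squamous keratins sit at places 701 to 6661.

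The squamous keratins had larger folds and later places than the simple ones by the median, but not in every pair. Over the 8 listed squamous pairs the median fold was 5.13, against 2.19 over the 22 simple pairs, per the authors' deposited table. A median of 27.8% of the cluster's listed genes came before the squamous keratins by p, against 1.43% for the simple keratins. Krt6a was early in cluster 5 and had a low fold in cluster 6. In cluster 6 Krt14, at 4.02, was below Krt20, at 4.50, per the authors' deposited table. Krt14 had 10.5% of the listed genes before it by p there, and Krt18 had 11.1% in cluster 7. The table gives no share of cells with a transcript, so the number of cells behind these folds is unknown.

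Krt14, the basal keratin, was listed in the same 3 clusters as the simple set. In clusters 3, 6 and 9 its folds were 4.77, 4.02 and 4.15 per the authors' deposited table, at places 2058, 701 and 1118, and it was raised in clusters 6 and 9. Krt14 thus had nearly level folds in these clusters, within a factor of 1.19, and it was the 1 squamous keratin raised in more than 1 cluster. Its basal partner Krt5 had no entry among the rows used here.

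Krt4, of the upper squamous layers, was listed and raised in cluster 6 alone, with a fold of 37.9 per the authors' deposited table at place 2423. Only 0.165% of the genes listed there had a larger fold. Krt13, its type I partner, was not listed in cluster 6. It was listed in cluster 2 at 5.99 and in cluster 3 at 5.49 per the authors' deposited table, at places 891 of 1661 and 1057 of 5474, and was raised in neither. Krt4 and Krt13 thus shared no cluster.

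Krt6a was raised in cluster 5 with a fold of 41.3 per the authors' deposited table, at place 28 of 3765, the earliest place among the squamous keratins. In cluster 6 it stood at 1.55 per the authors' deposited table, at place 6661 of 6664, and was not raised. Krt6a has a near-identical copy, Krt6b, which had no entry among the rows used here, and how reads shared by the copies were counted is not given, so this value is uncertain. Cluster 5 also held mast cell genes, of which 2 of 7 were raised, 28.6% beside 4.32% of all genes. These were the tryptase Tpsb2 at 403.5 and the carboxypeptidase Cpa3 at 177.7 per the authors' deposited table. Mcpt2 stood at 8.04 there per the authors' deposited table and was not raised, and the defining genes Kit, Cma1 and Fcer1a were not listed in that cluster. Their part in the keratin values was not tested.

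Of the 53 protein-coding keratin genes in GENCODE M21, 16 were named in the table, the 9 members and 7 of the 44 others. Of those 7, 4 were raised somewhere. Krt12, known from the cornea, was raised in cluster 6 at 10.7 and in cluster 9 at 4.33 per the authors' deposited table. Krt23 was raised in cluster 2 at 10.8 and Krt79 in cluster 3 at 9.80 per the authors' deposited table. Krt80 was raised in cluster 4 at 3.47 per the authors' deposited table, the 1 keratin listed in any of the 5 clusters that lack the members. In that cluster 9 of 9 macrophage genes were raised, beside 18.6% of all genes. Krt80 was also listed in cluster 3, at a larger fold of 8.81 per the authors' deposited table, and was not raised there. Krt10, the suprabasal keratin of the epidermis, stood at 57.1 in cluster 7 at place 1623 of 2217 per the authors' deposited table and was not raised.

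Epithelial genes other than keratins were raised in the clusters that held raised simple keratins. Of 8 such genes (Epcam, Cdh1, Esrp1 and others), clusters 3, 5, 6, 7 and 9 had 3, 1, 4, 1 and 3 raised and the remaining clusters 0. The tight-junction gene Cldn7 stood at 4.37, 3.41 and 4.06 in clusters 3, 6 and 9 of the authors' deposited table, raised in each. The cadherin Cdh1 was raised at 3.94 in cluster 5 and 2.74 in cluster 7 per the authors' deposited table. It stood at 1.79 in clusters 6 and 9, not raised, and was not listed in cluster 3. Surface mucous genes had 3 of 8 raised in cluster 3, 6 in cluster 6 and 6 in cluster 9, with the gastrokine Gkn2 at 10.8 in cluster 6 and the mucin-like Mucl3 at 7.34 in cluster 9 per the authors' deposited table. Clusters 5 and 7 had 0 of these raised. The share in clusters 3, 6 and 9 was 37.5%, 75.0% and 75.0%, beside 4.0%, 20.3% and 26.6% of all genes. Of 5 mucous neck genes, clusters 3, 4, 6, 7 and 9 had 2, 1, 3, 2 and 4 raised, so cluster 7, with Krt18 raised, had Tff2 at 2.22 and Aqp5 at 2.097 per the authors' deposited table. Of 8 intestinal genes, clusters 3, 5 and 6 had 1 raised each and cluster 9 had 4, led by Fcgbp at 8.37 and villin (Vil1) at 5.97 per the authors' deposited table. Mesothelin (Msln), which mesothelial cells and some carcinomas express, was the 1 gene of a mesothelial list of 6 that was raised in clusters 3, 6 and 9, at 3.26, 2.57 and 2.698 per the authors' deposited table. That is 16.7% of the list in each, beside 4.0%, 20.3% and 26.6% of all genes. Only 2 of the 6 genes were named, so the list share and the share of all named genes differ in base.

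Cluster 2, where Krt8 and Krt13 were listed, had 0 of the 8 epithelial genes listed. It had 5 of 7 erythroid genes raised, 71.4% beside 2.89% of all genes. They were led by Alas2 at 11.8 and the globin Hbb-bs at 10.0 per the authors' deposited table. The part of red cell transcripts in the Krt8 and Krt13 folds was not tested. In the 5 clusters without members, marker genes of other cell types were raised: 9 of 9 macrophage genes in clusters 4 and 8, 7 of 7 dendritic genes in cluster 8, 6 of 6 neutrophil genes in cluster 10 and 8 of 8 fibroblast genes in cluster 11. Of all genes, 18.6%, 6.36%, 4.90% and 17.0% were raised in clusters 4, 8, 10 and 11. T and NK cell genes had 2 of 8 raised in cluster 8 (25.0%) and 5 in cluster 10 (62.5%). Endothelial genes had 1 of 6 raised in clusters 9 and 11 and 2 in cluster 10. Over all 6 genes, of which 5 were named, that is 16.7% in clusters 9 and 11, beside 26.6% and 17.0% of all genes. In cluster 10 it is 33.3%. Cluster 1 had 1 of 7 erythroid genes raised (14.3%, beside 1.82% of all genes), Slc4a1 at 31.7 per the authors' deposited table.

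Genes that anchor or bind keratin filaments were raised in each of the 6 clusters that list a keratin of the 9, and in cluster 11. Of 16 such genes, 9 were raised in cluster 6 and 9 in cluster 9, against 4 in cluster 2, 3 in cluster 5, 1 each in clusters 3, 7 and 11, and 0 in the others. The share of the list raised was 56.25% in clusters 6 and 9, beside 20.3% and 26.6% of all genes, 25.0% in cluster 2 beside 2.89%, and 18.75% in cluster 5 beside 4.32%. In clusters 3, 7 and 11 it was 6.25%, beside 4.0%, 3.42% and 17.0% of all genes. In cluster 6 the keratin-organizing gene Fam83h stood at 37.9, epiplakin (Eppk1) at 8.77, and the desmosomal genes Pkp2 and Jup at 5.83 and 4.51 per the authors' deposited table. Cluster 9 was led by Jup at 3.68, desmoplakin (Dsp) at 3.68, periplakin (Ppl) at 3.47 and Pkp2 at 3.17 per the authors' deposited table. In cluster 3, 10 of the 16 were listed and the desmosomal cadherin Dsg2, at 2.98 per the authors' deposited table, was the 1 raised. Cluster 2 had Pkp1 raised at 5.50, Dst at 3.63, Itgb4 at 2.52 and Itga6 at 2.07 per the authors' deposited table.

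Other genes of squamous differentiation were scattered. Of 20 entries, in which loricrin stands under 2 symbols, 12 were named in the table. Clusters 3, 5, 6 and 9 had 4, 2, 3 and 2 raised, clusters 8, 10 and 11 had 1 each, and the rest had 0. The share raised was 20.0% in cluster 3 and 10.0% in cluster 5, beside 4.0% and 4.32% of all genes. In clusters 6 and 9 it was 15.0% and 10.0%, beside 20.3% and 26.6% of all genes. In clusters 8, 10 and 11 it was 5.0%, beside 6.36%, 4.90% and 17.0%. The list shares are over all 20 entries, named or not, while the share of all genes is over named genes only. Whether the list lies above or below all genes in clusters 6, 8, 9, 10 and 11 is thus not read from them. The genes named for those clusters are values of single genes. In cluster 3 the squamous master regulator Trp63 was raised at 26.5, the envelope protein involucrin (Ivl) at 12.4, Ly6d at 2.71 and Perp at 2.14 per the authors' deposited table, in the cluster where Krt13 and Krt14 were listed and not raised. Beside Krt4, cluster 6 had Sprr3 at 17.2, stratifin (Sfn) at 5.80 and Lgals7 at 4.96 raised per the authors' deposited table. Beside Krt6a, cluster 5 had filaggrin (Flg) at 98.8 and Sprr1a at 3.74 raised per the authors' deposited table. Cluster 9 had Cdsn at 7.38 and Sfn at 5.80 per the authors' deposited table. The transglutaminase Tgm1 was raised in clusters 8 and 10, at 7.30 and 4.34, and Sbsn in cluster 11, at 13.3 per the authors' deposited table, where no keratin was listed. The basal genes Krt5, Krt15, Dsg3, Dsc3 and Col17a1 had no entry among the rows used here.

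Transcription factors known to act on keratin genes or on epithelial identity differed in which member was raised. Of 23 such factors, 5 were raised in cluster 6, 4 in cluster 3, 3 each in clusters 2, 5 and 9, 1 each in clusters 1, 4, 8, 10 and 11, and 0 in cluster 7. Over all 23 factors, of which 20 were named, the share raised was 21.7% in cluster 6, beside 20.3% of all genes. It was 13.0% in cluster 9, below their 26.6%. It was 17.4% in cluster 3, beside 4.0% of all genes, and 13.0% in clusters 2 and 5, beside 2.89% and 4.32%. In clusters 1, 4, 8, 10 and 11 it was 4.35%, beside 1.82%, 18.6%, 6.36%, 4.90% and 17.0%. Cluster 6 had Tfap2a at 33.1, Grhl3 at 10.4, Ehf at 3.35 and Gata4 at 3.02 per the authors' deposited table. Cluster 3 had, after Trp63, Grhl1 at 7.50, Gata4 at 7.41 and Foxa2 at 2.33, and cluster 9 had Grhl2 at 7.76, Ehf at 4.64 and Gata4 at 3.08 per the authors' deposited table. Cluster 5 had Sox2 at 14.1, Foxa2 at 13.3 and Foxa1 at 2.76, and cluster 2 had Hnf4a at 5.66, Foxa1 at 5.64 and Klf4 at 4.49 per the authors' deposited table. The repressors of epithelial genes Zeb2 and Zeb1 were raised in clusters without the members, Zeb2 at 8.27 in cluster 4 and 4.78 in cluster 8 and Zeb1 at 3.14 in cluster 11 of the authors' deposited table. Zeb1 was also listed in cluster 3, at 1.81 per the authors' deposited table, and not raised. The epithelial factors Ovol1 and Klf5 were raised in clusters without the members too, Ovol1 at 9.26 in cluster 10 and Klf5 at 3.03 in cluster 1 of the authors' deposited table. Both were also listed, and not raised, in clusters with members. Klf5 stood at 1.96, 1.68 and 1.63 in clusters 3, 5 and 9 of the authors' deposited table. Ovol1 stood at 2.91 in cluster 5 and 1.92 in cluster 9 of the authors' deposited table. Gata4 was the 1 factor raised in each of clusters 3, 6 and 9.

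**Figure D3:**
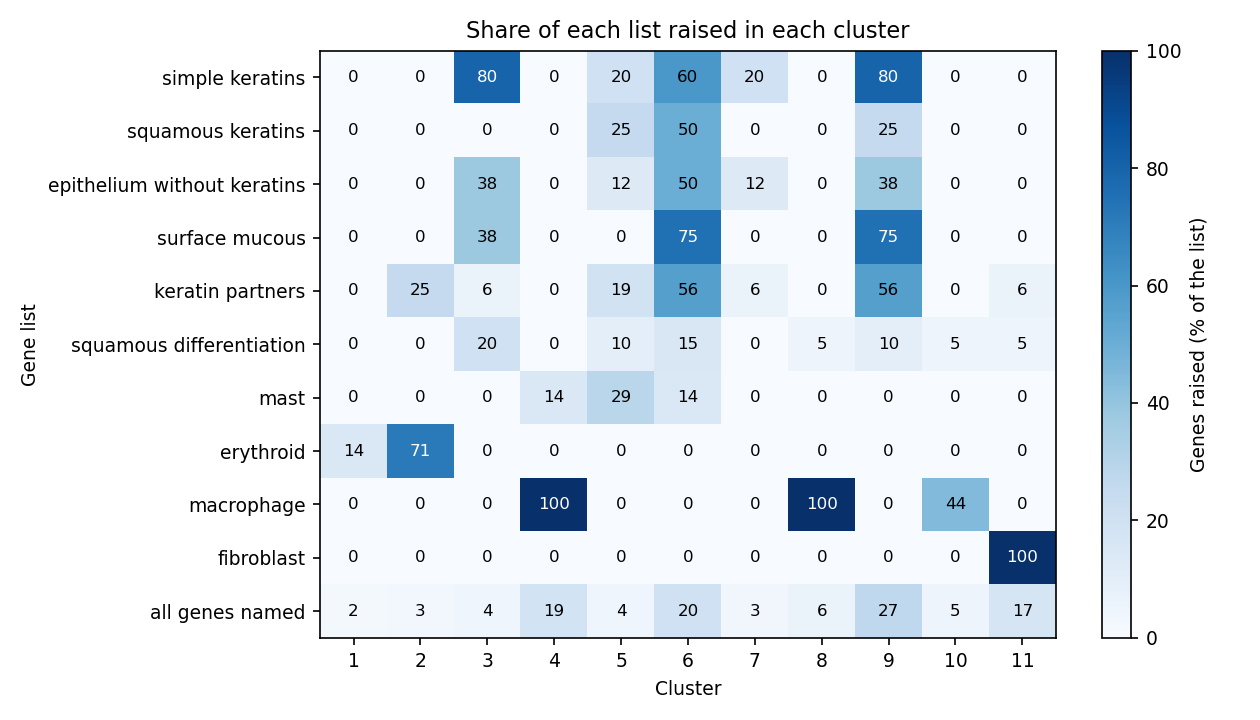
Percentage of each gene list (rows) that was raised in each cluster (columns), with all 18319 named genes in the bottom row. List percentages are over all genes of the list, named or not. Simple keratins and non-keratin epithelial genes share clusters 3, 5, 6, 7 and 9, and the columns of clusters 4, 8, 10 and 11 hold immune or fibroblast genes and 0 keratins of the 9.

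Among the 5 genes most like the simple keratins over the 11 clusters were Tinagl1, Chrnb1 and Lmcd1, with Pearson correlations of 0.943, 0.943 and 0.939 between their log2 fold and the mean log2 fold of the 5 keratins. The matrix protein gene Tinagl1 stood at 3.14, 2.07, 3.53 and 2.93 in clusters 3, 5, 6 and 9 of the authors' deposited table, raised in clusters 6 and 9. For the squamous keratins the 5 were Bspry, Gm14586, Gm8172, Akr1c13 and Prom1, at 0.962, 0.946, 0.945, 0.941 and 0.940. The squamous mean rests largely on single values, Krt6a at 41.3 in cluster 5 and Krt4 at 37.9 in cluster 6 per the authors' deposited table. Bspry, Gm14586, Gm8172 and Prom1 were listed in clusters 3, 5, 6 and 9, the set of Krt19 and Krt20 and of no squamous keratin. The likeness of these genes is to the mean, and that to any 1 squamous keratin was not computed. Prom1, a membrane protein of glandular and progenitor cells, was raised at 2.14, 2.65, 2.97 and 2.09 in clusters 3, 5, 6 and 9 of the authors' deposited table. Unlisted genes were set at the lowest fold in the table for this, so genes listed in the same clusters score high by construction. With unlisted genes at a fold of 1, 1 of the 5 genes remained on each list, and for the squamous keratins this was Bspry.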

How the data were processed

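Dissociated cells of 2 tumors, 1 library of each type, were captured by inDrop, and TruDrop libraries were sequenced, per the labels' protocols. The submitters' processing notes name mm10, STAR 2.7.3a, Partek and DESeq2 3.5 without the step each served. The 1 table used holds, per the file headers, a linear fold (a ratio) and a p-value for the listed genes of each of 11 clusters, as the authors deposited them. No source used here gives the test, its adjustment or the cell filters. The deposited p-value compares cells and not animals; it served as a filter and for the order of genes, and is not printed.

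Computed here (Python 3.11.15, pandas 2.3.3) were the raised calls (fold of at least 2, p of at most 0.05), the counts over 18 gene lists and the correlations over clusters. The raised rule and the correlations were run on simulated data with planted genes. That run checks the code alone and does not bear on the values reported here. The list counts were not part of it. No test was made, since there are no values per sample. The members and lists were chosen with earlier results of these data known. Named were the 9 members, up to 4 raised genes of largest fold per list and cluster, further list members chosen after their values were seen, and the 5 most alike genes, of which some are not reported here. Gene positions are GENCODE M21's, 1-based. Other fold and p thresholds were tried.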

Additional observations from a re-analysis of the deposited data

How the results depend on the processing

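The count of raised simple keratin pairs, 13 in the text, became 20 at a fold of at least 1.5 and 3 at a fold of at least 3. The share of all pairs called went from 10.0% to 12.9% and 6.60%. The 3 pairs left at the higher fold are those of Krt20. At that fold the simple keratins, with 3 of 55 pairs, lay below the share of all pairs. The squamous keratins, with 4 of 44 pairs (9.09%), lay above it. This reverses the order given in the text for a fold of at least 2. With a p of at most 0.01, no limit on p, or Benjamini-Hochberg adjustment within the cluster, the count was 13, 14 and 12; no limit adds Krt19 in cluster 5, and the adjustment takes away Krt20 in cluster 3. The count of squamous pairs, 4 in the text, was 4 under both folds, the lower p and the adjustment, and became 7 with no limit on p, 15.9% of the pairs beside 17.7% of all pairs, which adds Krt13 in clusters 2 and 3 and Krt14 in cluster 3. No paired analysis was possible because the table holds no values per sample. Cells per cluster and counts per cell are unknown, so no interval can be given for any fold.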

Other observations

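Intermediate filament genes other than keratins were raised in clusters with and without the 9 keratins. Of 15 such genes 7 were named in the table. Clusters 4, 6, 9, 10 and 11 had 1, 1, 3, 1 and 4 raised, and the rest had 0. Over all 15 that is 6.67%, 6.67%, 20.0%, 6.67% and 26.7%. Beside these stand 18.6%, 20.3%, 26.6%, 4.90% and 17.0% of all named genes, so the values given here are those of single genes. Vimentin (Vim), the filament protein of mesenchymal and immune cells, was raised in cluster 4 at 2.29 and in cluster 11 at 2.43 per the authors' deposited table, which list none of the 9 keratins. It stood at 1.76 in cluster 7 and 1.85 in cluster 8 per the authors' deposited table, not raised. Cluster 7 was the 1 cluster that listed Vim beside simple keratins. Nestin (Nes), known from progenitor cells, was raised at 3.37 in cluster 6 and 13.9 in cluster 9 per the authors' deposited table. The lamin Lmna, of the nuclear envelope, was raised in cluster 11 alone, at 2.91 per the authors' deposited table. Also raised were Bfsp1 at 16.9 in cluster 11, Lmnb1 at 5.45 in cluster 10 and Nefh at 4.24 in cluster 9. Lmnb2 was raised at 5.81 in cluster 9 and 2.57 in cluster 11 of the authors' deposited table.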
